A study of Mus musculus with 10 samples.

Results

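This account covers 9 genes of phosphate handling and the klotho axis in the mouse kidney, which were chosen by symbol from a table of 13299 genes. They are the sodium phosphate cotransporters Slc34a1, Slc34a3, Slc20a1 and Slc20a2, the phosphate exporter Xpr1, the scaffold Pdzk1, the klotho gene Kl, the FGF receptor Fgfr1 and the parathyroid hormone receptor Pth1r. The choice was made with the measured genotype contrast in view, so its values are given as a description. Whole kidneys of 5 Rragc S74N/+ mice and 5 Rragc +/+ mice, all 1.5 years old, were profiled by 3′ mRNA sequencing to ask how the aged kidney differs when RagC signals nutrient sufficiency more strongly. RagC is a small GTPase that passes amino acid signals to the kinase complex mTORC1. The mutant allele was a germline CRISPR knock-in with added silent changes, present as 1 of the 2 copies in every cell of the animal, and the labels gave no further allele, treatment or sex. All 9 members were in the table, and all 9 passed the filter of at least 5 normalized counts in at least 5 samples, as did 13236 genes in total. Slc34a3 met this filter only through the 5 Rragc +/+ samples, since every Rragc S74N/+ value was under 5.

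Phosphate that passes the glomerulus is taken back mainly in the proximal tubule, where Slc34a1 and Slc34a3 (NaPi-IIa and NaPi-IIc) carry it across the apical membrane together with sodium. Slc20a1 and Slc20a2 (PiT-1 and PiT-2) are sodium phosphate cotransporters used by most cell types, and Xpr1 lets phosphate out of cells. Parathyroid hormone, through Pth1r, and the bone hormone FGF23, through an FGF receptor with α-klotho (the product of Kl) as coreceptor, both cause NaPi cotransporters to be withdrawn from the apical membrane, where PDZ proteins such as Pdzk1 anchor them.

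Values are the normalized counts deposited by the authors, in which reads of a gene were divided by a size factor of the sample. Sequencing started at the 3′ end, so a transcript gives about the same number of reads whatever its length and levels of different genes are compared here without division by length. In the 8 samples whose values were turned back into whole reads, depth ran from 4488493 to 5797251 reads. Mitochondrially encoded genes took 35.8% to 38.0% of the counts in Rragc +/+ and 33.8% to 36.8% in Rragc S74N/+. The Rragc gene itself stood at 146 ± 42.7 normalized counts (SD, n = 5) in the wild type and 123.7 ± 26.4 in the heterozygotes, and 3′ reads do not cover the changed codon. The library of Rragc S74N/+ replicate 1 stood apart from its group for the endothelial marker Pecam1, at 570 normalized counts against 241 to 348 in the other 4. It also had the lowest Cubn, at 248 against 469 to 493. Values without it are given beside the results of Kl, Xpr1, Pdzk1, the ratios that hold Kl or Pdzk1, and the median of the phosphate transport and sensing list.

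In wild-type kidney Slc34a1 was by far the most abundant member, and Slc34a3 was a low-level gene. On the scale of normalized counts, Slc34a1 averaged 18242 ± 2151 (SD, n = 5) in Rragc +/+, about 10 times the next member. Pdzk1 at 1822 and Pth1r at 1729 followed, with ranges that overlapped. Kl at 774 and Xpr1 at 577 came next, and in all 5 samples Kl was above Xpr1. Fgfr1 at 103.1, Slc20a1 at 95.1 and Slc34a3 at 78.2 overlapped, each with the next. Slc20a2 was lowest, at 28.9. In Rragc S74N/+ Pth1r at 1790 stood before Pdzk1 at 1680, with ranges that again overlapped. At the lower end Slc34a3 was last, 13.3-fold below Slc20a2, Slc20a1 stood above Fgfr1 in all 5 samples, and the ranges of Kl and Xpr1 overlapped.

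**Figure D1:**
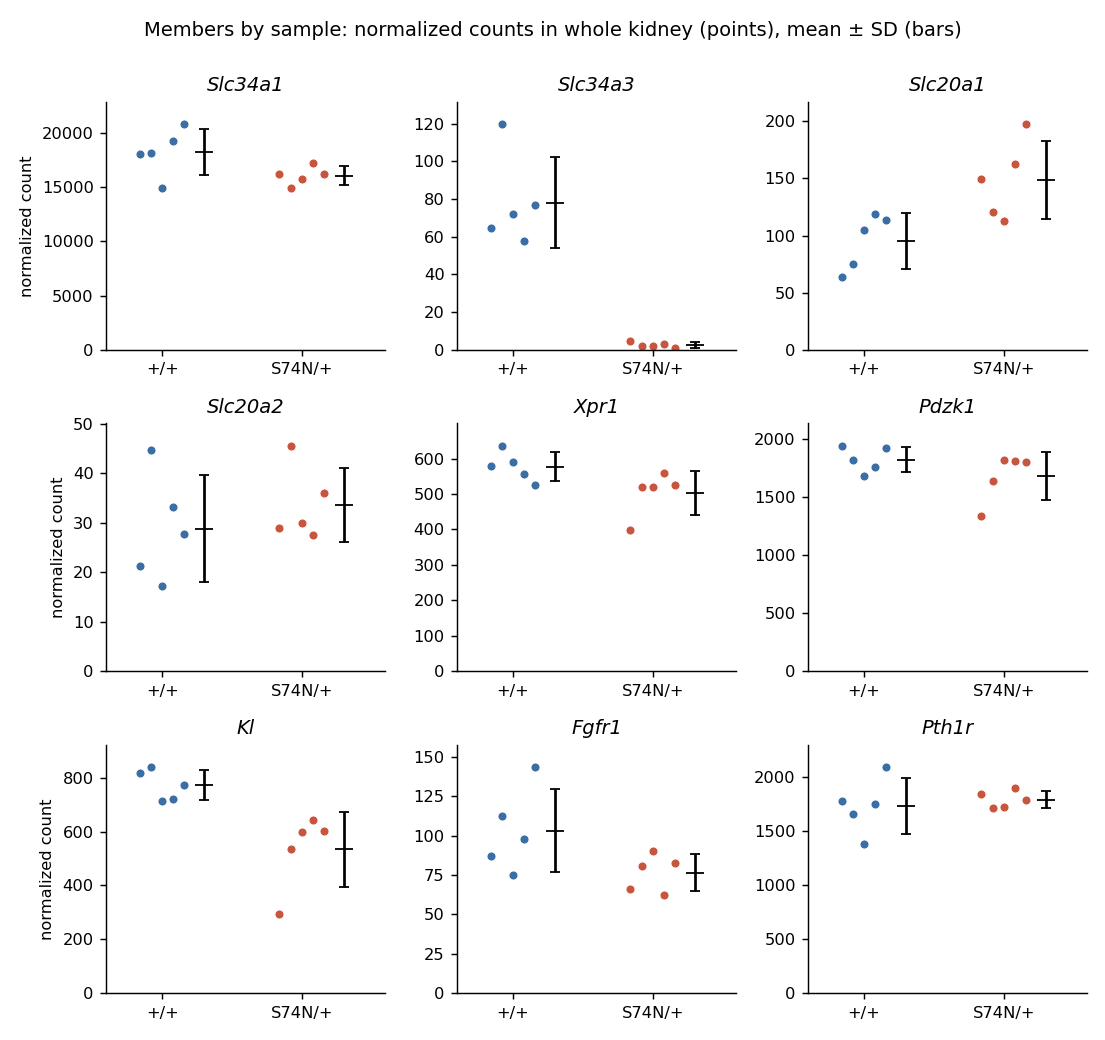
Normalized counts (y axis, from 0, with a separate scale per gene) of the 9 members in each of the 5 Rragc +/+ (blue) and 5 Rragc S74N/+ (red) kidneys, with mean ± SD beside the points. The groups do not overlap for Slc34a3 and Kl, and the sample lowest in Kl, Xpr1 and Pdzk1 is Rragc S74N/+ replicate 1.

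Of the 9 members 1 passed the threshold of an adjusted p of 0.05 (limma, Benjamini-Hochberg over all 13236 genes), and it was lower. Over all tested genes 6.03% were called, 3.45% as higher and 2.58% as lower. The members' median log2 fold change was -0.17, beside -0.01 over all tested genes, and 4 members had an unadjusted p under 0.05, where 25.4% of all genes did. For 2 members, Slc34a3 and Kl, every Rragc S74N/+ value lay below every Rragc +/+ value, while 8.16% of all genes were separated in either direction, 4.15% higher and 4.01% lower.

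**Figure D2:**
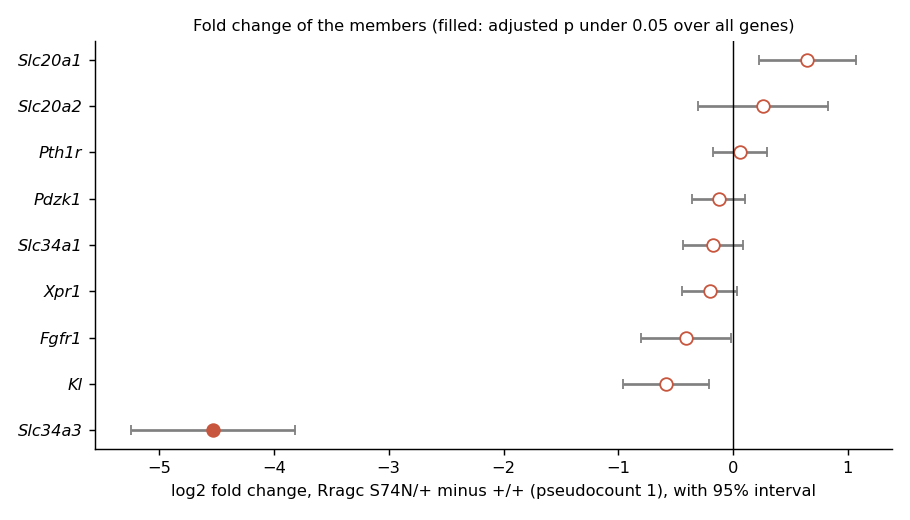
Log2 fold change of each member (x axis, Rragc S74N/+ minus Rragc +/+, pseudocount 1) with its 95% interval from limma, where a filled point marks an adjusted p under 0.05 over all genes. Slc34a3 at -4.53 lies far from the other 8, which run from -0.58 for Kl to 0.65 for Slc20a1.

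Slc34a3 encodes NaPi-IIc, the minor apical cotransporter, whose loss in humans causes hereditary hypophosphatemic rickets with hypercalciuria. It measured 64.9, 119.6, 72.0, 57.6 and 76.6 normalized counts in Rragc +/+ replicates 1 to 5, and 4.66, 1.94, 2.0, 3.06 and 0.972 in Rragc S74N/+ replicates 1 to 5. All 5 mutant kidneys were near the floor of detection, and the highest of them was over 10 times below the lowest wild-type kidney. Slc34a3 fell by 4.53 on the log2 scale with a pseudocount of 1 (SE 0.34, 95% interval -5.24 to -3.82, limma adjusted p = 1.61e-06), the second lowest fold change of the 13236 genes. This scale understates the change of a low gene, and the ratio of the means was 30.9. As whole reads, 314 were counted over 4 Rragc +/+ libraries and 11 over 4 Rragc S74N/+ libraries, or 58 to 115 against 1 to 5 in a library. After scaling for depth that ratio was 27.6 (15.2 to 55.9, exact 95% interval, counting error only, since reads carried no molecular identifiers).

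Slc34a1, the main apical cotransporter of the same tubule segment, did not pass the threshold. It measured 18048, 18134, 14949, 19275 and 20802 normalized counts in Rragc +/+, and 16179, 14959, 15804, 17282 and 16196 in Rragc S74N/+. Wild-type replicate 3 was the lowest of all 10 samples, and the groups overlapped. The log2 difference was -0.17 ± 0.12 (SE, limma adjusted p = 0.40), with a 95% interval of -0.44 to 0.09 that lies outside the interval of Slc34a3 altogether. Both genes are read in the same sample, so scaling between samples enters their ratio only through the pseudocount. The log2 ratio of Slc34a3 to Slc34a1 ran from -8.36 to -7.23 in Rragc +/+ and from -13.0 to -11.5 in Rragc S74N/+. It was lower by 4.36 ± 0.32 (SE), with no overlap (exact two-sided permutation test over all allocations of the samples, p = 0.00794, the smallest they can give, and 0.020 adjusted over 5 pairs compared). The difference was -4.60 at a pseudocount of 0.5 and -3.27 at a pseudocount of 5, again with the smallest p. Since Slc34a3 was picked for this contrast, the p-value describes the separation and adds no independent evidence.

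Slc34a3 was a small share of cotransporter mRNA in both groups. Of the summed normalized counts of the 4 sodium phosphate cotransporters, Slc34a3 made up 0.429% ± 0.140 (SD, n = 5) in Rragc +/+ and 0.0155% ± 0.00838 in Rragc S74N/+. Slc34a1 made up 98.9% in both groups (SD 0.196 and 0.185). The share of Slc20a1 and Slc20a2 together was 0.675% ± 0.134 in Rragc +/+, with samples from 0.467% to 0.805%. In Rragc S74N/+ it was 1.12% ± 0.188, from 0.896% to 1.42%, so the groups did not overlap in this share either. Slc34a1 makes up nearly all of the sum behind this share, and its mean changed by -11.8% in Rragc S74N/+. The counts of Slc20a1 and of Slc20a2 each overlapped between the groups.

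**Figure D3:**
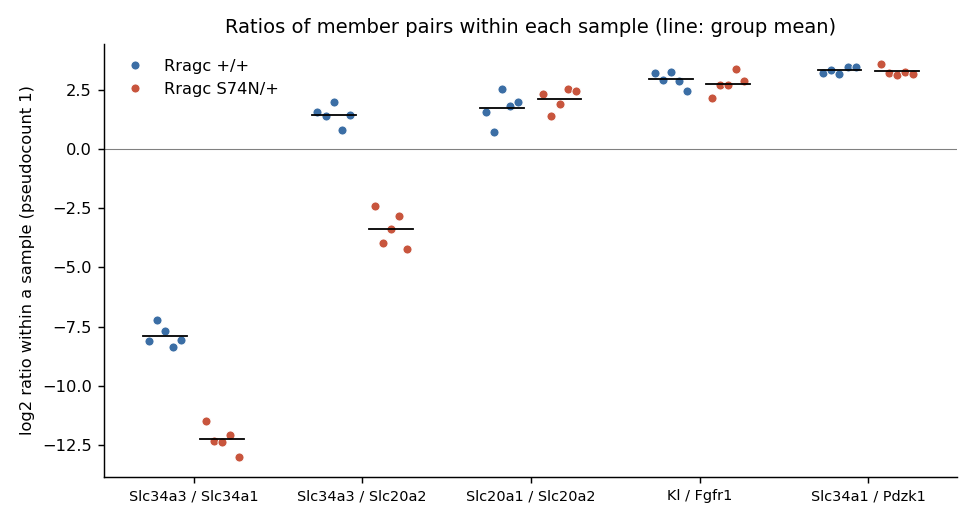
Log2 ratio of 5 member pairs within each sample (y axis, pseudocount 1), in Rragc +/+ (blue) and Rragc S74N/+ (red), with a line at each group mean. The groups are apart for both ratios that hold Slc34a3 (differences -4.36 and -4.79) and overlap for Slc20a1/Slc20a2, Kl/Fgfr1 and Slc34a1/Pdzk1.

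Slc34a3 is a proximal tubule gene, and most markers of that segment did not pass the threshold. Of 16 proximal tubule markers, 0 passed the threshold as higher and 2 as lower, with a median log2 fold change of -0.12. Their summed level ran from 134329 to 178285 normalized counts in Rragc +/+ and from 136646 to 184019 in Rragc S74N/+. Most of this sum was 1 gene, Kap, at 94161 ± 14920 and 103466 ± 14058 (SD, n = 5), so the sum says little about the other markers. Lrp2 (megalin), the endocytic receptor of this segment, ran from 4756 to 6410 and from 5141 to 8754. The 2 that fell were Slc5a2, the sodium glucose cotransporter of the early proximal tubule, from 845 ± 48.2 to 415 ± 89.7 (log2 -1.05 ± 0.14), and Gatm, an enzyme of creatine synthesis, from 850 ± 108 to 419 ± 89.9 (log2 -1.03 ± 0.14, means ± SD, n = 5 per group). In whole kidney, fewer cells of a type and less RNA per cell cannot be told apart, and this holds for every member described here.

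The starts of the 2 apical cotransporter genes are shown because the genes differ so much in their change, and that of Slc20a1 because this gene ran the other way. The sequences are the 250 bases before the RefSeq start in build GRCm38.p6, while the reads had been aligned to GRCm39, and 7 of the 9 members had such an entry. Capitals mark matches on either strand to 3 motifs, CACGTG (E-box), GTTAAT (a short HNF1 motif) and AGGTCA (a nuclear receptor motif), which 6.02%, 6.43% and 14.0% of 32851 such windows hold.
Slc34a3, chr2:25234235-25234484, minus strand: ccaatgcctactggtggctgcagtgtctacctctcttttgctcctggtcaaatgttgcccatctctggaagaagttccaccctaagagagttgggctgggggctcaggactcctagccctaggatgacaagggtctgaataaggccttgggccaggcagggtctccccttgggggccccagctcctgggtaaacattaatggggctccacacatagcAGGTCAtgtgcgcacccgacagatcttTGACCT
Slc34a1, chr13:55399398-55399647, plus strand: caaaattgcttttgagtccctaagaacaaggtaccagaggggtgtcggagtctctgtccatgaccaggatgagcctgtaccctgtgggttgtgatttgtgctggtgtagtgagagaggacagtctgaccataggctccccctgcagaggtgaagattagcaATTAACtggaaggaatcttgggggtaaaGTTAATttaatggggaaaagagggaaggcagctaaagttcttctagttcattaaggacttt
Slc20a1, chr2:129198523-129198772, plus strand: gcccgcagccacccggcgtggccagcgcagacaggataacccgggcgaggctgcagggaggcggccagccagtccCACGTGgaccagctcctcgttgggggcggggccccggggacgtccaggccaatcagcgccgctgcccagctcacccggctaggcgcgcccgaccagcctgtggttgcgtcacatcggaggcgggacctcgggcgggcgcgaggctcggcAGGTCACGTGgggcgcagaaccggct

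In these windows Slc34a3 held AGGTCA at 33 and at 6 bases before its start, the latter on the opposite strand and thus written TGACCT. Slc34a1 held GTTAAT at 89 bases, on the opposite strand and written ATTAAC, and at 61 bases. The Slc20a1 window printed here, of 2 such entries, held CACGTG at 175 and 22 bases before the start, and an AGGTCA at 26 bases that shares letters with the second E-box. The other Slc20a1 entry held no CACGTG and an AGGTCA at 75 bases, and AGGTCA also stood in a window of Xpr1, at 124 bases, and of Pdzk1, at 50 bases. A match describes these letters only. The windows of Slc34a3 and Slc34a1 shared none of the 3 motifs, each of which most windows lack, and a link to their change was not tested.

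Slc20a1, a cotransporter of most cell types, was the member with the highest fold change, and its call depended on the setting. It measured 63.8, 74.9, 104.6, 118.8 and 113.4 normalized counts in Rragc +/+, and 149.2, 120.2, 113.0, 163.0 and 197.2 in Rragc S74N/+. Mutant replicate 3 lay within the wild-type range and the other 4 lay above it. The log2 difference was 0.65 ± 0.20 (SE, 95% interval 0.22 to 1.07, limma adjusted p = 0.065). It passed the threshold with the range of title numbers as a term (log2 0.65, adjusted p = 0.027), under scaling to library totals (log2 0.73, adjusted p = 0.038) and without Rragc S74N/+ replicate 3 (log2 0.74, adjusted p = 0.046). It also passed in the 8 samples with whole reads under edgeR (log2 0.80, adjusted p = 0.044), DESeq2 (log2 0.79, adjusted p = 0.017) and limma (log2 0.81, adjusted p = 0.045), and these fits too lack mutant replicate 3. The adjusted p was 0.12 without the variance trend of limma and 0.16 without Rragc +/+ replicate 2. Its relative Slc20a2 measured 21.3, 44.7, 17.3, 33.2 and 27.9 in Rragc +/+, and 28.9, 45.6, 30.0, 27.5 and 35.9 in Rragc S74N/+, with a log2 difference of 0.26 ± 0.27 (adjusted p = 0.57). The ratio of Slc20a1 to Slc20a2 did not separate the groups (log2 difference 0.39 ± 0.36, exact permutation p = 0.34, 0.57 adjusted over 5 pairs). This difference was 0.14 without Rragc +/+ replicate 2 and 0.59 without Rragc +/+ replicate 3.

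Some markers of other cell types were also higher in the mutant kidneys. Of 11 myeloid markers 3 rose and 0 fell past the threshold. Their summed level ran from 594 to 765 normalized counts in Rragc +/+ and from 915 to 1199 in Rragc S74N/+. By sign alone 9 of them were higher and 2 lower, Cd68 (log2 -0.34) and C1qc (log2 -0.48). Of 8 fibroblast and mural markers 3 rose, with sums of 968 to 1738 against 1475 to 2315. By sign alone 6 of these 8 were higher and 2 lower, Pdgfrb (log2 -0.13) and Acta2 (log2 -0.37). Ptprc (CD45), carried by all leukocytes, ran from 64.6 to 92.9 against 120.0 to 255.5, and of 8 tubule injury markers 4 rose, among them Havcr1 (KIM-1), at 0 to 8.95 against 12.1 to 61.2. Lcn2 and Vcam1 rose with groups that overlapped, and Krt8, Krt18, Sox9 and Spp1 did not pass. By sign alone 7 of the 8 injury markers were higher and 1 lower, Spp1 (log2 -0.04). Ptprc was also the only one of the 6 tested genes of the T and B cell list to pass, and Cd3d, Cd3e, Cd79b, Ms4a1 and Jchain did not. All 6 nevertheless had positive log2 fold changes, from 0.80 to 1.62 with a median of 1.20. Of the 6, 5 had an unadjusted limma p under 0.05. Of 5 podocyte markers 1 rose, 0 of 6 endothelial markers passed limma's threshold in either direction, and of 8 collecting duct markers 1 rose and 1 fell. The part of these cells in the Slc20a1 values was not tested.

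Xpr1 and the scaffold Pdzk1 did not pass the threshold. Xpr1, the phosphate exporter, measured 578, 636, 590, 556 and 526 normalized counts in Rragc +/+, and 397, 519, 521, 558 and 525 in Rragc S74N/+. Its log2 difference was -0.20 ± 0.11 (SE, limma adjusted p = 0.28), and it was -0.12 without Rragc S74N/+ replicate 1. Pdzk1 measured 1939, 1818, 1680, 1754 and 1917 in Rragc +/+, and 1337, 1641, 1814, 1806 and 1803 in Rragc S74N/+, a log2 difference of -0.12 ± 0.11 (adjusted p = 0.50) that was -0.04 without Rragc S74N/+ replicate 1. Again replicate 1 was the lowest mutant kidney, and the other 4 lay near the wild-type range. The ratio of Slc34a1 to Pdzk1 differed by -0.05 ± 0.10 on the log2 scale (exact permutation p = 0.65, also after adjustment), and by -0.13 without Rragc S74N/+ replicate 1 (adjusted exact permutation p = 0.21).

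Kl, which encodes α-klotho, was lower in every mutant kidney than in any wild-type kidney, short of the threshold over all genes. It measured 818, 838, 715, 721 and 775 normalized counts in Rragc +/+, and 293, 534, 597, 644 and 601 in Rragc S74N/+. Replicate 1 of the mutant group was far below the other 4, and the highest mutant value of 644 lay under the lowest wild-type value of 715. The means were 774 ± 55.5 and 534 ± 140 (SD, n = 5), and the log2 difference was -0.58 ± 0.18 (SE, 95% interval -0.95 to -0.21, limma adjusted p = 0.059). An exact two-sided permutation test gave p = 0.00794, the smallest it can give, which is not adjusted for the 13236 genes and is given as a description. Without Rragc S74N/+ replicate 1 the difference was -0.38 with an adjusted p of 0.028, so this library decided on which side of the threshold Kl fell. Among samples with title numbers under 200 (3 per group) the log2 difference was -0.80, and among those over 200 (2 per group) it was -0.26. The mutant samples under 200 include replicate 1, at 293, and the difference within that range was not computed without it.

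Kl is known chiefly from the distal convoluted tubule, with lower levels in the proximal tubule, and most markers of the distal convoluted and connecting tubule were lower in the same kidneys. Of 9 markers of the distal convoluted and connecting tubule 6 fell and 0 rose, with a median log2 fold change of -0.98. Their summed level ran from 9590 to 11055 normalized counts in Rragc +/+ and from 4003 to 5604 in Rragc S74N/+. Slc12a3, the thiazide-sensitive sodium chloride cotransporter that defines the segment, ran from 3559 to 4321 against 827 to 1410, and Pvalb, at 0 in mutant replicate 5, from 86.6 to 144.6 against 0 to 16.3. Slc8a1 (log2 -0.37, limma adjusted p = 0.18), Trpv5 (log2 0.10, adjusted p = 0.88) and Trpm7 (log2 0.15, adjusted p = 0.55) did not pass. Of 5 markers of the thick ascending limb 3 fell, and Umod (uromodulin) ran from 4848 to 6897 against 1005 to 3306. Slc12a1, the sodium potassium chloride cotransporter that defines that limb, did not pass, at 3130 ± 503 and 3318 ± 1084 (log2 0.04, limma adjusted p = 0.91), nor did Cldn16 (log2 0.44, adjusted p = 0.32). The part of these segments in the Kl values was not tested.

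Fgfr1, the receptor that pairs with α-klotho, measured 87.3, 112.4, 74.9, 97.8 and 143.3 normalized counts in Rragc +/+, and 66.2, 80.4, 90.0, 62.1 and 82.6 in Rragc S74N/+. The groups overlapped, and the log2 difference was -0.41 ± 0.18 (SE, 95% interval -0.80 to -0.02, limma adjusted p = 0.18). Within the title ranges it was -0.20 under 200 and -0.72 over 200. The ratio of Kl to Fgfr1 did not separate the groups (log2 difference -0.18 ± 0.24, exact permutation p = 0.47, 0.59 adjusted over 5 pairs). Leaving out 1 sample moved this difference from -0.33, without Rragc S74N/+ replicate 4, to -0.0192, without replicate 1 of that group.

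Pth1r, through which parathyroid hormone acts on the tubule, measured 1780, 1653, 1377, 1750 and 2087 normalized counts in Rragc +/+, and 1840, 1708, 1725, 1893 and 1785 in Rragc S74N/+. All 5 mutant values lay within the wild-type range. The log2 difference was 0.06 ± 0.11 (SE, limma adjusted p = 0.77), and its 95% interval of -0.18 to 0.30 bounds the change that these samples allow.

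Of 68 further genes listed for the surrounding pathways 56 were tested, and by limma on all 10 samples 0 rose and 1 fell, which is 1 gene where 6.03% of all tested genes were called. Their median log2 fold change was -0.11, and 17 had an unadjusted limma p under 0.05, where 25.4% of all tested genes did. The gene that fell was Gabarap, a ubiquitin-like protein of vesicle trafficking and autophagy in the list of apical scaffold and trafficking genes. It went from 685 ± 71.4 to 491 ± 54.6 normalized counts (SD, n = 5), a log2 difference of -0.48 ± 0.11 (SE, limma adjusted p = 0.022), with no overlap between groups. In the 8 samples with whole reads, edgeR called 5 of these genes and DESeq2 called 9. No pathway gene passed limma's threshold when Rragc +/+ replicate 1 or 2, or Rragc S74N/+ replicate 4 or 5, was left out.

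The lists are described by their roles, with genes named for their role after their values were seen. Among 10 tested genes of phosphate transport and sensing limma and edgeR called 0, with 3 at an unadjusted limma p under 0.05 and a median of -0.20, and DESeq2 called 2. Slc25a3, the mitochondrial phosphate carrier, stood at 2528 ± 398 and 1584 ± 574 (log2 -0.78 ± 0.26, adjusted p = 0.079), and Ip6k1, a kinase that makes the inositol pyrophosphates sensed by Xpr1, at 193 ± 8.55 and 144 ± 23.4 (log2 -0.43 ± 0.13, adjusted p = 0.066). These limma values missed the threshold, and DESeq2 on the 8 samples called both, with log2 -0.87 (adjusted p = 0.017) and -0.51 (adjusted p = 0.039). Those 8 samples include Rragc S74N/+ replicate 1. The groups overlapped for Slc25a3, at 1978 to 3044 in Rragc +/+ and 598 to 2099 in Rragc S74N/+. Without Rragc S74N/+ replicate 1 the median of the phosphate transport and sensing list was -0.0677. Among 11 apical scaffold genes the median was -0.17, edgeR and DESeq2 called Msn as higher beside Gabarap, and Slc9a3r1 (NHERF1), the main anchor of NaPi-IIa, stood at 599 ± 48.1 and 583 ± 69.8 (log2 -0.04 ± 0.11, adjusted p = 0.85). Among 19 genes of FGF and klotho signaling limma and edgeR called 0, with 5 at an unadjusted limma p under 0.05 and a median of -0.10, and DESeq2 called Mapk3 (ERK1) as lower (log2 -0.48, adjusted p = 0.042). The immediate early gene Egr1, a readout of FGF23 signaling, stood at 71.2 ± 32.2 and 139 ± 91.9 (log2 0.86 ± 0.33, adjusted p = 0.12). Among 16 genes of parathyroid hormone and vitamin D signaling limma on all 10 samples called 0, with 5 at an unadjusted p under 0.05 and a median of -0.01. On the 8 samples edgeR, DESeq2 and limma called the G protein gene Gna11 and the protein kinase A subunit gene Prkaca as lower and the phospholipase gene Plcb1 as higher, and DESeq2 also called Prkar1a as lower. The vitamin D receptor gene Vdr stood at 1024 ± 325 and 1031 ± 202 (log2 0.04 ± 0.18, adjusted p = 0.92), and Cyp24a1, the enzyme that degrades active vitamin D, at 91.9 ± 50.3 and 157 ± 79.2 (log2 0.82 ± 0.35, adjusted p = 0.16). Fgf23, Klb, Phex and Cyp27b1 were among the 12 listed genes that had no entry among the 13299 genes with values.

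**Figure D4:**
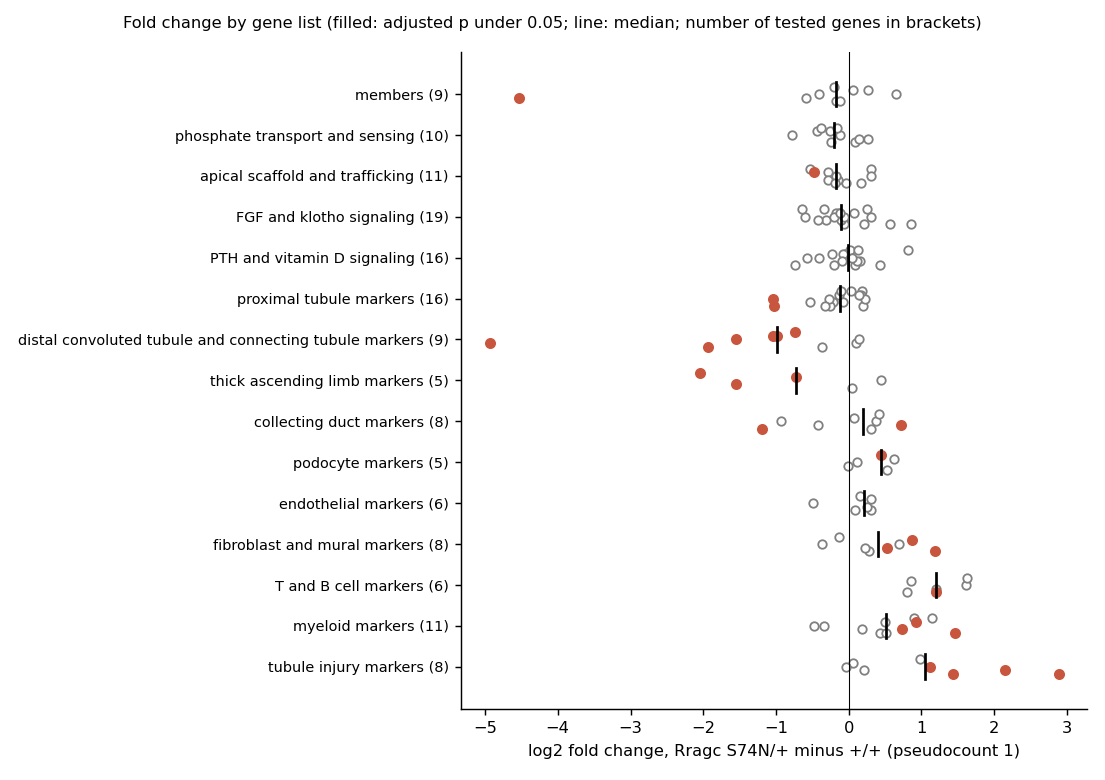
Log2 fold change (x axis, Rragc S74N/+ minus Rragc +/+, pseudocount 1) of every tested gene of the members, 4 pathway lists and 10 marker lists, with filled points past an adjusted p of 0.05 and a line at each list's median. The 4 pathway lists hold 1 filled point, Gabarap, and the distal convoluted and connecting tubule markers hold 6, all lower.

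Genes beside Slc34a3 on its chromosome, chosen for their place, gave other values. Of its 3 nearest coding genes on either side, 2 were tested, and these were Tubb4b, a tubulin gene (520 ± 102 and 537 ± 85.8, log2 0.05 ± 0.15, limma adjusted p = 0.87), and Rnf208 (104 ± 25.0 and 63.2 ± 9.30, log2 -0.68 ± 0.19, adjusted p = 0.042). Over all tested genes, the 5 with the highest Pearson r to Slc34a3 across the 10 samples were Ugt2b34 (r = 0.983), Prrc2a (0.971), Spp2 (0.967), Osr2 (0.958) and Nap1l5 (0.956). The glucuronosyltransferase gene Ugt2b34 went from 46.0 ± 8.94 to 1.95 ± 0.975 normalized counts, and the secreted phosphoprotein gene Spp2 from 711 ± 144 to 119 ± 14.9. The points share the split between genotypes, which sets most of such an r.

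For Kl the closest genes were of another kind. They were Camk2n1 (r = 0.987), mt-Nd4 (0.987), Plpbp (0.986), Rpl7a (0.986) and Psmd3 (0.986), which include a mitochondrially encoded respiratory chain subunit, a ribosomal protein and a proteasome subunit. Each missed the threshold between genotypes, with adjusted p from 0.064 for Rpl7a to 0.12 for mt-Nd4 (limma). The mitochondrially encoded mt-Nd4 stood at 133247 ± 11777 normalized counts in Rragc +/+ and 91553 ± 24947 in Rragc S74N/+. These points share the low values of Rragc S74N/+ replicate 1 as well as the split between genotypes, and the part of that library in the likeness was not tested.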

How the data were processed

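Whole kidney RNA of 10 mice was sequenced from the 3′ end (QuantSeq FWD). Per the labels and the study's methods, the authors checked reads with FastQC 0.11.7, aligned them to GRCm39 with TopHat2 2.0.10, Bowtie 1.0.0 and SAMtools 0.1.19, and counted them on the sense strand with HTSeq 0.6.1. The deposited values are a signal, counts that the authors divided by a size factor per sample, in 1 table of 13299 genes whose lowest gene mean was 4.37. Log2 of the normalized count plus 1 was fitted with limma 3.58.1 (R 4.3.3, genotype as the only term, eBayes with variance trend, two-sided) on 13236 genes with at least 5 in at least 5 samples, with Benjamini-Hochberg adjustment over all of them. Fits on fewer samples kept these genes. Dividing by the smallest step gave whole reads, within 0.1 reads, for 100% of values. The step of Rragc +/+ replicate 5 and of Rragc S74N/+ replicate 3 was too near 1 for the check applied, so edgeR 4.0.16 (called genes 851) and DESeq2 1.42.0 (called genes 1402) were run on the other 8 samples. Ratios of 5 pairs were compared by exact permutation (scipy 1.17.1). Scripts were tested on simulated data, where a first demand for recovery at small fold changes was relaxed after it had failed.

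The labels gave no replicate numbers, so samples were numbered by order of deposit. Nothing states that samples came from separate litters or preparations, and p-values measure the spread between these mice only. Intervals on reads cover counting error only. The members and gene lists were chosen with earlier results of these data known. Named were all 9 members, pathway genes past the threshold, defining cell type markers, and the 5 genes most like Slc34a3 and Kl. Other names were added after their values were seen. Alternatives were pseudocounts of 0.5 and 5, filters, scalings, eBayes settings, the range of title numbers, the count models and leaving out each sample.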

Additional observations from a re-analysis of the deposited data

Results flagged for a closer look

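A search of 28 groups of 5 values (the 9 members and the 5 pair ratios in each genotype) for a sample far from its group found 2, where chance gives 1.4. Both concern Rragc S74N/+ replicate 1. Its Xpr1 level was 397 normalized counts, against 519 to 558 in the other 4 mutant kidneys. Its log2 ratio of Slc34a1 to Pdzk1 was 3.60, against 3.12 to 3.26 in the other 4.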

How the results depend on the processing

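No paired analysis was possible because the labels carry no replicate numbers. Slc34a3 stayed past the threshold under all 12 alternatives that kept it and without any 1 sample, with log2 fold changes from -4.88 (DESeq2) to -3.44 (pseudocount 5). A minimum mean of 50 normalized counts removed it and Slc20a2, which left 0 members called. Members called were 2, with Slc20a1 added, under library totals (log2 0.73), the title range term (0.65), edgeR (0.80), DESeq2 (0.79) and limma on the 8 samples (0.81). Kl lay from -0.64 to -0.50 with adjusted p from 0.054 to 0.13 over 13 alternatives, none past the threshold. Genes called in the whole table, 798 in the report, were 391 without the variance trend and 1402 by DESeq2. Other pathway genes called were 0 without the trend, 2 under totals without mitochondrial genes, 3 under library totals and under the minimum mean of 50, 5 under edgeR and limma on the 8 samples, and 9 under DESeq2. Library totals moved the list medians of FGF and klotho signaling to -0.0259 and of parathyroid hormone and vitamin D signaling to 0.0662. They also turned 457 higher and 341 lower genes into 718 and 225. The cause was not tested.

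Leaving out 1 sample at a time gave log2 fold changes of -0.24 to -0.13 for Slc34a1, -4.72 to -4.34 for Slc34a3, 0.52 to 0.74 for Slc20a1, 0.10 to 0.43 for Slc20a2, -0.24 to -0.12 for Xpr1, -0.15 to -0.04 for Pdzk1, -0.66 to -0.38 for Kl, -0.51 to -0.28 for Fgfr1 and -0.0176 to 0.13 for Pth1r, which turned sign without Rragc +/+ replicate 3 (-0.0176). Members called were 1 to 2, genes called over all tested ones from 311 (without Rragc +/+ replicate 2) to 902, and other pathway genes called 0 to 3. Log2 ratio differences ran from -4.55 to -4.17 for Slc34a3/Slc34a1, -5.03 to -4.58 for Slc34a3/Slc20a2, 0.14 to 0.59 for Slc20a1/Slc20a2, -0.13 to -0.015 for Slc34a1/Pdzk1 and -0.33 to -0.0192 for Kl/Fgfr1. The median of the phosphate transport and sensing list ran from -0.24 to -0.0677, the latter without Rragc S74N/+ replicate 1. Depth limits Slc34a3 in the mutant kidneys, where 1 to 5 reads stand behind each value.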
